A study of Homo sapiens with 27 samples.

Results

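SUM159 is a mesenchymal triple negative breast cancer cell line, and the comparison described here was made between SUM159 cells in which the ZEB1 promoter was targeted with a pool of 4 guide RNAs (All gRNA) and SUM159 cells targeted with 1 of those guides alone (gRNA 4). It held 6 of the 27 libraries of the series, 3 of each condition, chosen from the column labels, and no measured value entered the choice. Both conditions carried dCas9-KRAB, a catalytically dead Cas9 joined to the KRAB repressor domain, which was delivered with the guide by the lentiviral vector pLV-KRAB and followed by puromycin selection. The remaining SUM159 libraries of the same run were 3 from untransduced cells (wild type) and 3 from cells that received dCas9-KRAB without a guide (No gRNA). The vector and the selection were thus shared by No gRNA, gRNA 4 and All gRNA but not by wild type. The labels give runs without saying which step of the work a run covers. The study also profiled the line MDA-MB-231 with the same kinds of groups in a second run. Replicates were called biological replicates in the labels and individual clones in the methods, with no more detail on how the clones were obtained. The comparison asks which genes moved further where ZEB1 was repressed further, and which differed between the targeted populations without following ZEB1.

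ZEB1 is a zinc finger transcription factor that binds E-box motifs and represses epithelial genes such as those of cell junctions, and it is one of the central drivers of epithelial-to-mesenchymal transition in carcinoma cells. KRAB recruits the corepressor TRIM28 and, through it, histone methyltransferases that deposit H3K9me3, so that a promoter bound by dCas9-KRAB is kept silent without a cut in the DNA. ZEB1-AS1 is a long non-coding RNA that is transcribed from the opposite strand of the same promoter.

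The 4 target sites are shown because they are the only designed difference between the conditions. The pool was designed to target all of them and the single guide the last. Binding at the sites was not measured in these libraries, and which guides of the pool each replicate carried is not given. The bases were read from the RefSeq ZEB1 promoter window (GRCh38.p14) at the sites of the study's guides and are given 5′ to 3′ on the guide's strand, with the protospacer adjacent motif (PAM) in capitals.
gRNA 1: gggcggtttgcggcaaccgtGGG
gRNA 2: agaggctctcgctctacggcCGG
gRNA 3: cacctggtttacgacactccCGG
gRNA 4: agcatttagacacaagcgagAGG
gRNA 1 (chr10:31319025-31319044), gRNA 2 (chr10:31319067-31319086) and gRNA 3 (chr10:31319117-31319136) lay on the minus strand, upstream of the annotated ZEB1 start site, between positions −191 and −80 counted from the start site as +1. gRNA 4 (chr10:31319209-31319228) lay on the plus strand and spanned the start site, from position −7 to 13. The protospacer of gRNA 3 contained the E-box letters CACCTG.

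The 6 libraries held between 17765723 and 19409955 estimated counts each, against 15461200 to 21473757 over the 27 libraries, and no libraries were identical. The All gRNA and gRNA 4 libraries correlated at r = 0.978 to 0.981 with each other across 15147 genes, which is close to the range within each condition, 0.981 to 0.982. VIM, CD44, AXL and CAV1, markers of the mesenchymal line, were high in all 6 libraries (VIM, the intermediate filament vimentin, at 3392 to 3878 CPM, the count scaled to library size, with gRNA 4 and 3726 to 4212 with All gRNA), whereas PGR and CD3E had no counts and ESR1 had at most 2.69 estimated counts. Other markers of hormone receptor positive or HER2 breast cells were detected. KRT18 was at 284 to 312 CPM with gRNA 4 and 298 to 313 with All gRNA, and ERBB2 at 37.7 to 44.9 and 45.2 to 50.8. GATA3 was at 4.24 to 6.10 and 5.09 to 7.42 CPM, and FOXA1 at 0.87 to 1.46 and 1.41 to 2.50. Of the 5 endothelial markers only PECAM1 was clearly detected, at 4.16 to 7.22 CPM with gRNA 4 and 4.798 to 7.67 CPM with All gRNA.

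ZEB1 was repressed further by the pool than by gRNA 4. In CPM after scaling of the library sizes, ZEB1 stood at 68.7, 74.8 and 70.8 in the No gRNA libraries, 4.400, 3.12 and 2.47 in the gRNA 4 libraries and 0.786, 0.363 and 0.991 in the All gRNA libraries. The targeted conditions did not overlap with No gRNA or with each other, and gRNA 4 left 4.66% and All gRNA 0.999% of the mean No gRNA level. Between them ZEB1 was 4.67-fold lower with All gRNA on mean CPM, a fitted log2 difference of −2.25 (SE 0.367, adjusted p = 0.0165) by the voom-limma moderated test. The difference rested on few reads, a mean of 13.3 estimated counts per All gRNA library and 59.4 per gRNA 4 library. The exact two-sided permutation test of 3 against 3 libraries gave p = 0.1, the smallest value that this design can give, and TREAT, limma's test against a minimum log2 difference of 1, gave an adjusted p of 1. The moderated call was lost without All gRNA replicate 1 (log2 difference −2.36, adjusted p = 0.0656) and without All gRNA replicate 2 (−1.84, adjusted p = 0.0637), and in a fit of the 6 libraries alone (−2.25, adjusted p = 0.115).

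ZEB1-AS1 separated the conditions more widely than ZEB1 itself. It was at 10.3, 10.7 and 10.04 CPM with No gRNA, 5.09, 8.25 and 5.003 CPM with gRNA 4 and 0, 0.472 and 0.409 CPM with All gRNA. All gRNA lay below every other library, while gRNA 4 kept 59.1% of the mean No gRNA level and its difference from No gRNA (log2 −0.80) did not pass the test (adjusted p = 0.0854). Over the 3 libraries, 326 counts with gRNA 4 stood against 17 with All gRNA, a ratio of 20.04 (12.3 to 34.8, a 95% interval of counting error only), and the fitted log2 difference was −5.03 (SE 0.749, adjusted p = 0.00963). Its exact permutation p was also 0.1, its TREAT adjusted p was 0.733, and the call was lost in the fit of the 6 libraries alone (adjusted p = 0.107). The transcripts share sequence in antisense orientation, and whether the counting used strand is not given in the sources used here, so that reads from the shared stretch cannot be assigned with certainty. In the plot of both transcripts by library, the step from gRNA 4 to All gRNA was larger for ZEB1-AS1, and the step from No gRNA to gRNA 4 larger for ZEB1.

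**Figure D1:**
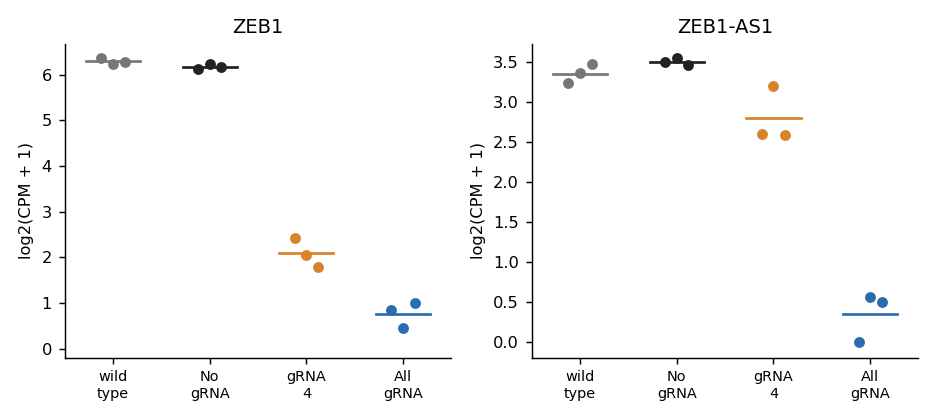
Levels of ZEB1 (left) and ZEB1-AS1 (right) in the 12 SUM159 libraries of the first run, as log2(CPM + 1) on the vertical axis, with 1 point per library and a line at the mean of each group. All gRNA libraries lie lowest for both transcripts, at no more than 0.991 CPM for ZEB1 and 0.472 CPM for ZEB1-AS1.

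Over all genes few differences between the targeted conditions passed the tests. With TREAT 0 of 15147 genes passed an adjusted p of 0.05 (0% called; 32, or 0.211%, had an unadjusted TREAT p under 0.05, and edgeR's test against the same minimum called 2 genes and DESeq2's 3). TREAT did not call ZEB1 either, so its count cannot show that the conditions were alike. With the moderated test against 0, 143 genes passed (0.944% of those tested), 85 higher with All gRNA (0.561%) and 58 lower (0.383%). Without adjustment, 1737 genes (11.5%) had a moderated p under 0.05, and DESeq2's test against 0 called 355 genes after adjustment. The libraries of all 143 did not overlap between the conditions, as was the case for 15.8% of all genes. The median size of the 143 differences was 0.56 on the log2 scale, and 30 of them exceeded 1. The count leaned on every library: it was 59 without All gRNA replicate 1, 66 without replicate 2 and 85 without replicate 3, and 69, 74 and 76 without gRNA 4 replicates 1, 2 and 3. Of the 143, 41 were called in each of these 6 fits and 22 in all 17 alternative fits of the moderated test. The genes named below are not limited to the latter, and many of them lost the call in some alternatives.

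Placed against No gRNA, the 143 genes fell into 6 classes. Those that differed from No gRNA in 1 direction with both guides, and further with All gRNA, were called stepwise (20 genes, 17 higher and 3 lower with All gRNA than with gRNA 4), and those that went further with gRNA 4 were called reverse step (32 genes, 12 higher and 20 lower). A further 33 genes differed from No gRNA with All gRNA alone and 45 with gRNA 4 alone, 4 differed in opposite directions, and 9 differed with neither. All gRNA was thus the condition further from No gRNA for 60 genes and gRNA 4 for 83, although ZEB1 was lowest with All gRNA. The classes are a description, since both comparisons share the No gRNA libraries. In the plot of one change against the other, stepwise genes lie on the far side of the line of equal change and reverse step genes between that line and the axis of gRNA 4.

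**Figure D2:**
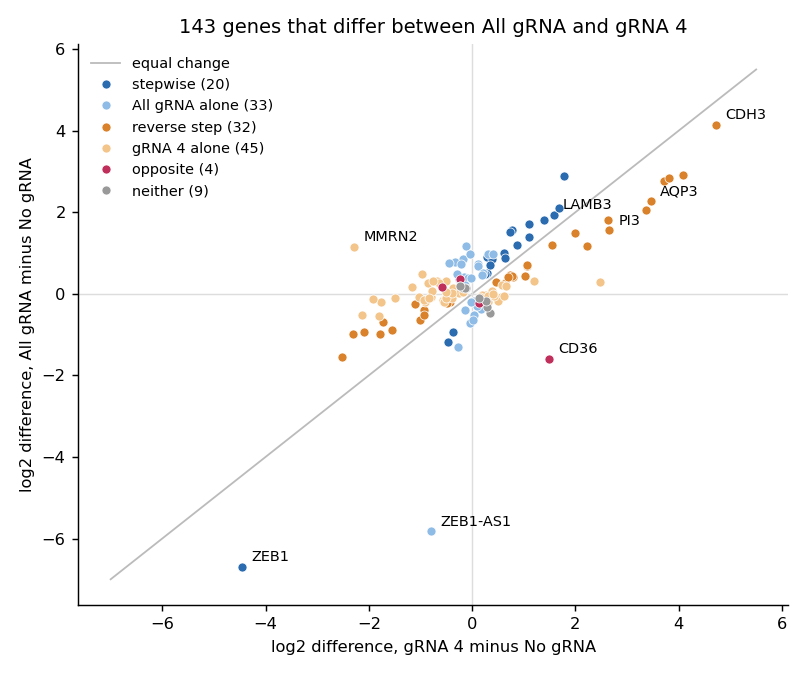
Log2 difference from No gRNA with gRNA 4 (horizontal) and with All gRNA (vertical) for the 143 genes called between All gRNA and gRNA 4, coloured by class with the number of genes in brackets; the grey line marks equal change. ZEB1 lies below the line at −4.45 and −6.70, and P-cadherin (CDH3) lies below it at 4.72 and 4.15.

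The stepwise genes were led by 5 that were called in all 17 alternatives. MT1X, a metallothionein that binds zinc and copper, stood at 115, 107 and 118 CPM with No gRNA, 141, 135 and 142 with gRNA 4 and 196, 217 and 220.5 with All gRNA. Each step was larger than the spread of its libraries, with a log2 difference between the guides of 0.60 (SE 0.0573, adjusted p = 0.000489), although reads of the metallothionein family can be shared between its members. DUSP5, a nuclear phosphatase that inactivates ERK, was at 128, 117 and 123 CPM, then 153, 165 and 163 and then 219, 221 and 221, again without overlap, and differed by 0.46 (SE 0.0490, adjusted p = 0.00103). STC1, the secreted glycoprotein stanniocalcin 1, was at 19.1, 14.9 and 14.2 CPM with No gRNA, 27.5, 28.1 and 25.98 with gRNA 4 and 45.8, 48.7 and 47.2 with All gRNA, a difference of 0.80 (SE 0.0886, adjusted p = 0.00142). Wild type cells held 28.8, 29.8 and 27.4 CPM of STC1, which overlapped the gRNA 4 libraries, so that its first step was seen against No gRNA and not against wild type. SCNN1G, the gamma subunit of the epithelial sodium channel, rose from 6.82, 7.497 and 7.36 CPM to 11.5, 12.98 and 11.5 and then 19.9, 20.9998 and 21.05, and differed by 0.79 (SE 0.0915, adjusted p = 0.00182). The fifth, ENSG00000230439, is not in the annotation used here and went from 3.55, 2.896 and 2.19 CPM through 9.403, 10.4 and 9.500 to 19.3, 22.02 and 21.4, a difference of 1.10 (SE 0.117, adjusted p = 0.00103).

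The other stepwise genes are named here because they complete the class. LAMB3, the β3 chain of laminin-332 in epithelial basement membrane, stood at 102, 112 and 97.7 CPM with No gRNA, 289, 330.2 and 311 with gRNA 4 and 427, 405 and 368 with All gRNA. Most of its rise was already present with gRNA 4 (log2 1.58 over No gRNA, against 1.94 with All gRNA), and the difference between the guides was 0.37 (SE 0.0659, adjusted p = 0.0282). UGT1A6, a glucuronidating enzyme whose last exons are shared with other UGT1A genes so that its reads are uncertain, rose by 1.68 and 2.10, and SERPINA1, the elastase inhibitor α1-antitrypsin, by 1.39 and 1.82. The calls of UGT1A6 and SERPINA1 held in 7 and 5 of the 17 alternatives, and in 0 of the 6 fits that left out 1 library. TNS4, the focal adhesion protein tensin 4, rose by 1.10 with gRNA 4 and 1.72 with All gRNA, the collagen receptor ITGA2 by 0.28 and 0.49, and the matrix-binding anthrax toxin receptor ANTXR2 by 0.86 with gRNA 4 and a further 0.34 with All gRNA. The surface glycoprotein CDCP1, the calcium-binding protein S100A16, the chromatin protein HMGA1, the pleckstrin homology-like protein PHLDA1, the sugar phosphate exchanger SLC37A2 and the long non-coding RNA ENSG00000278266 made up the remaining risers, with differences between the guides of 0.22 to 0.38. The call of ENSG00000278266 held in 16 of the 17 alternatives. Those of CDCP1, S100A16, HMGA1, SLC37A2 and PHLDA1 held in 9, 7, 6, 6 and 5.

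Only ZEB1 and a pair of other genes stepped down. SEMA3C, a secreted semaphorin guidance factor, stood at 47.7, 52.01 and 46.7 CPM with No gRNA, 32.5, 37.5 and 35.3 with gRNA 4 and 19.9, 23.6 and 21.5 with All gRNA, a difference of −0.70 (SE 0.0892, adjusted p = 0.00399). ROS1, a receptor tyrosine kinase, went from 61.6, 63.6 and 60.1 CPM to 50.8, 47.7 and 45.7 and 31.9, 30.1 and 34.01, a difference of −0.59 (SE 0.0792, adjusted p = 0.00546). Both were ordered without overlap among the 3 transduced groups. With wild type in place of No gRNA as the reference, 31 genes were stepwise and 14 of the 20 kept the class; STC1, ITGA2, HMGA1, SLC37A2 and S100A16 became All gRNA alone and PHLDA1 reverse step. The plot of 12 genes by library shows 4 stepwise genes in its upper row.

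**Figure D3:**
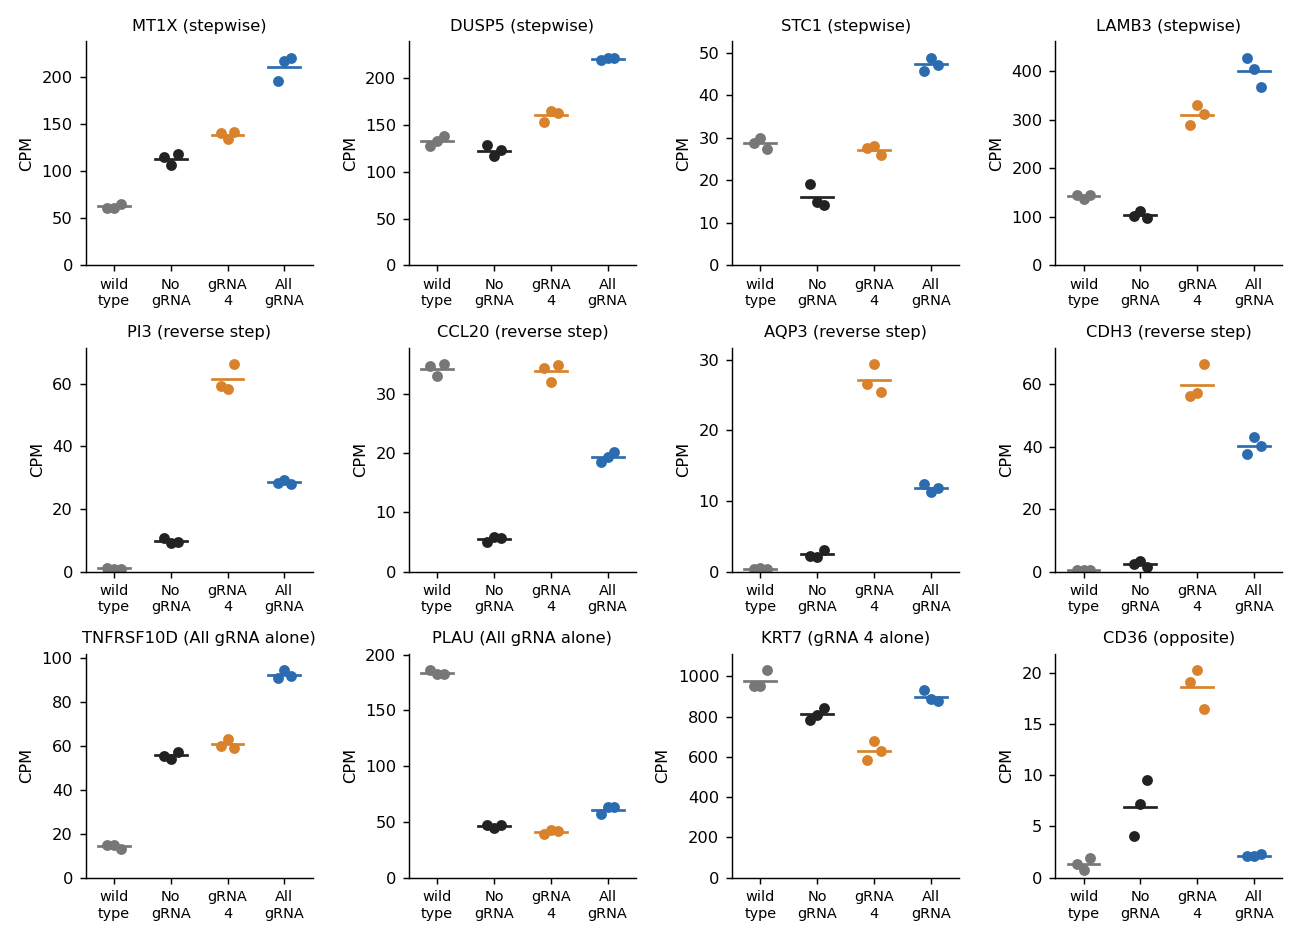
CPM in each SUM159 library of the first run for 12 called genes, with 1 point per library, a line at each group mean and the class of the gene in the panel title. Each vertical axis starts at 0. MT1X, DUSP5, STC1 and LAMB3 are highest with All gRNA, PI3, CCL20, AQP3 and CDH3 are higher with gRNA 4 than with All gRNA, and TNFRSF10D and PLAU are also far apart between wild type and No gRNA.

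The promoters of the 3 stepwise genes with an E-box in their window and the largest rise over No gRNA are shown, since the E-box is the motif that ZEB1 binds. Each stretch was read from the RefSeq windows (GRCh38.p14) on the strand of the gene, with the E-box in capitals.
LAMB3: ccccacaggCAGGTGggcattgtg
UGT1A6: cgtgccagcCAGGTGtgcatgact
SERPINA1: caggtacaaCAGGTGacatgccgg
They lie at chr1:209652629-209652652 on the minus strand, chr2:233691503-233691526 on the plus strand and chr14:94390813-94390836 on the minus strand. CAGGTG or its reverse complement CACCTG occurred in 20.6% of all 35116 windows of 250 bases before to 50 after a start, so that a match is common. Windows were given for 13 of the 20 stepwise genes, too few to compare the share of the class with the rest.

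Among the 33 genes that differed from No gRNA with All gRNA alone, 20 were higher and 13 lower than with gRNA 4. TNFRSF10D, a decoy receptor for the death ligand TRAIL, was at 55.6, 54.3 and 57.4 CPM with No gRNA, 59.8, 63.2 and 59.2 with gRNA 4 and 91.2, 94.5 and 91.8 with All gRNA. The 3 groups did not overlap, but the difference of gRNA 4 from No gRNA (0.12) did not pass the test (adjusted p = 0.23), and All gRNA lay 0.61 (SE 0.0559, adjusted p = 0.000451) above gRNA 4. SYNE2, the nuclear envelope protein nesprin-2, stood at 457, 428 and 437 CPM with gRNA 4 and 707, 579 and 676 with All gRNA, a difference of 0.57 (SE 0.0652, adjusted p = 0.00174). PLAU, the urokinase plasminogen activator, was at 47.2, 44.4 and 47.04 CPM with No gRNA, 39.2, 43.1 and 41.9 with gRNA 4 and 56.9, 63.1 and 63.4 with All gRNA, a difference of 0.56 (SE 0.0666, adjusted p = 0.00200). Its level in wild type cells, 186, 182 and 183 CPM, lay far above all transduced groups. TMEM40, a transmembrane protein, was called in all 17 alternatives at 1.04 (SE 0.147, adjusted p = 0.00793), and SLC14A1, a urea transporter, differed by 1.31 (SE 0.177, adjusted p = 0.00546). EGLN3, a prolyl hydroxylase that marks hypoxia inducible factors for degradation, went from 14.9, 15.9 and 14.8 CPM with gRNA 4 to 21.7, 27.8 and 23.9 with All gRNA, a difference of 0.68 (SE 0.107, adjusted p = 0.0138).

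The 32 reverse step genes included PI3, AQP3, CCL20 and CDH3, which were higher with both guides than with No gRNA. PI3, the elastase inhibitor elafin, stood at 10.6, 9.14 and 9.34 CPM with No gRNA, 59.4, 58.4 and 66.3 with gRNA 4 and 28.2, 29.2 and 28.1 with All gRNA. Both guides were above No gRNA, All gRNA lay between No gRNA and gRNA 4, and the difference was −1.10 (SE 0.0773, adjusted p = 5.48e-05). In wild type cells PI3 was at 1.27, 0.965 and 0.830 CPM, below every transduced library. AQP3, a water and glycerol channel of epithelia, was at 2.26, 2.03 and 3.08 CPM, then 26.6, 29.4 and 25.4 with gRNA 4 and 12.4, 11.3 and 11.8 with All gRNA, a difference of −1.20 (SE 0.102, adjusted p = 0.000241). CCL20, a chemokine for CCR6-positive lymphocytes, was at 4.98, 5.82 and 5.63 CPM with No gRNA, 34.4, 32.1 and 34.9 with gRNA 4 and 18.5, 19.3 and 20.2 with All gRNA, a difference of −0.81 (SE 0.0756, adjusted p = 0.000480). Wild type cells held 34.7, 33.00 and 35.04 CPM of CCL20, which overlapped the gRNA 4 libraries. CDH3, which encodes P-cadherin, rose from 2.52, 3.43 and 1.33 CPM to 56.2, 57.03 and 66.4 with gRNA 4 and 37.5, 42.9 and 40.1 with All gRNA, so that the larger part of its rise was common to both. Their difference of −0.57 (SE 0.115, adjusted p = 0.0432) was lost in 12 of the 17 alternatives.

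Other reverse step genes rose with both guides, and further with gRNA 4. The apoptosis inhibitor BCL2A1 was at 7.62, 7.16 and 5.897 CPM with gRNA 4 and 3.05, 2.62 and 3.54 with All gRNA (−1.16, SE 0.183, adjusted p = 0.0138), the water channel AQP9 at 5.49, 4.796 and 5.04 and 1.599, 2.67 and 1.99 (−1.31, SE 0.237, adjusted p = 0.0282), and the calcium-binding alarmin S100A9 at 7.404, 7.02 and 8.61 and 3.99, 3.901 and 3.696 (−0.98, SE 0.193, adjusted p = 0.0386). No gRNA libraries held at most 0.993 CPM of any of them. SLPI, the secretory leukocyte protease inhibitor, rose by 2.00 with gRNA 4 and 1.48 with All gRNA and differed by −0.52 (SE 0.0766, adjusted p = 0.00932). The calls of S100A9 and AQP9 were lost in 11 and 9 of the 17 alternatives. SAA1, an acute phase apolipoprotein that shares reads with its near-identical paralog SAA2, differed by −0.29 (SE 0.0455, adjusted p = 0.0133).

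A further set of reverse step genes fell, and fell further with gRNA 4. PHGDH, the first enzyme of serine synthesis, was at 175, 189.7 and 189 CPM with No gRNA, 77.5, 88.3 and 90.4 with gRNA 4 and 152, 154 and 155 with All gRNA. All gRNA thus lay between the other transduced groups, with a difference between the guides of 0.85 (SE 0.0626, adjusted p = 6.96e-05). In wild type cells PHGDH was at 128, 128 and 134 CPM, below All gRNA and above gRNA 4. Only its fall with gRNA 4 was thus also seen against wild type. LAPTM5, a lysosomal membrane protein, was at 13.3, 12.8 and 12.5 CPM with No gRNA, 2.82, 2.35 and 2.61 with gRNA 4 and 6.66, 5.91 and 6.88 with All gRNA, a difference of 1.31 (SE 0.193, adjusted p = 0.00932). In wild type cells LAPTM5 was at 2.22, 3.46 and 3.80 CPM, which overlapped the gRNA 4 libraries. Its fall was thus seen against No gRNA and not against wild type. S100A4, a calcium-binding protein of mesenchymal cells, fell by 2.53 with gRNA 4 and by 1.54 with All gRNA on the log2 scale, and differed by 0.99 (SE 0.191, adjusted p = 0.0366). CCL5, a T cell chemokine, went from 22.5, 19.99 and 21.9 CPM with No gRNA to 7.44, 7.295 and 7.29 with gRNA 4 and 12.4, 11.5 and 10.96 with All gRNA (0.66, SE 0.113, adjusted p = 0.0207), while wild type cells held at most 0.337 CPM. FTL, the ferritin light chain, whose reads can be shared with its pseudogenes, differed by 0.23 (SE 0.0311, adjusted p = 0.00537). The calls of S100A4 and CCL5 held in 7 and 9 of the 17 alternatives.

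The largest class held 45 genes that differed from No gRNA with gRNA 4 alone, 29 of them higher and 16 lower with All gRNA than with gRNA 4. KRT7, a simple epithelial keratin, was at 781, 807 and 845 CPM with No gRNA, 584, 680.0 and 628 with gRNA 4 and 933, 887 and 878 with All gRNA. It was lower with gRNA 4 than in every other library of the run, by 0.51 (SE 0.0568, adjusted p = 0.00140) in the comparison of the guides. RNF41, a ubiquitin ligase, was at 60.3, 62.8 and 60.8 CPM with gRNA 4 and 109.8, 90.3 and 100.4 with All gRNA against 119, 109.8 and 116 with No gRNA, a difference of 0.70 (SE 0.0813, adjusted p = 0.00174). ALOXE3, an epidermal lipoxygenase, stood at 3.37, 2.62 and 2.69 CPM with gRNA 4 and 7.36, 7.65 and 9.02 with All gRNA (1.47, SE 0.186, adjusted p = 0.00387), and DGAT2, an enzyme of triglyceride synthesis, at 4.45, 6.33 and 7.404 and 17.96, 14.6 and 14.96 (1.41, SE 0.182, adjusted p = 0.00424). F2RL2, a protease-activated receptor, differed by 1.33, the long non-coding RNA ENSG00000250509 by 1.61 and the ribosomal protein pseudogene RPLP0P2, whose reads may come from its parent gene, by 1.56, all higher with All gRNA. SAA2 was lower with All gRNA, at a difference of −0.45 (SE 0.0838, adjusted p = 0.0307).

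The widest differences of this class rested on few counts. MMRN2, an extracellular matrix protein of the vessel wall, had 62 counts over the 3 All gRNA libraries and 6 over the 3 gRNA 4 libraries, a ratio of 9.89 with a counting interval of 4.29 to 27.97. IL36RN, the interleukin-36 receptor antagonist, had 19 and 93 counts, a ratio of 5.12 (3.10 to 8.88) in favour of gRNA 4. Both passed the moderated test (adjusted p = 0.0291 and 0.0322) but lost it in most of the alternatives.

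The 4 genes that moved in opposite directions were EMP1, PLAT, CD36 and OGFRL1. EMP1, a tetraspan membrane protein, had 196, 192 and 193 CPM with No gRNA, 122, 129.5 and 136 with gRNA 4 and 222, 216 and 214 with All gRNA, and PLAT, the tissue plasminogen activator, had 349.6, 364 and 359.6, 293, 308 and 310.3 and 465, 448 and 474 in the same order. In both genes gRNA 4 lay below and All gRNA above No gRNA, and the guides differed by 0.75 (SE 0.0516, adjusted p = 5.48e-05) and 0.61 (SE 0.0503, adjusted p = 0.000208). CD36, a scavenger receptor that takes up fatty acids, went the other way, with 4.12, 7.17 and 9.53 CPM with No gRNA, 19.1, 20.2 and 16.4 with gRNA 4 and 2.08, 2.07 and 2.35 with All gRNA. Its difference between the guides, −3.08 (SE 0.321, adjusted p = 0.000947), was called in all 17 alternatives, although its No gRNA libraries themselves were widely spread. OGFRL1, a protein of little known role, differed by −0.35 (SE 0.0405, adjusted p = 0.00174). The 9 genes that differed from No gRNA with neither guide had differences of 0.22 to 0.81 in size and included FAIM, an inhibitor of Fas-induced apoptosis (−0.81), the membrane progestin receptor PAQR5 (0.42), the vesicle transport GTPase RAB34 (0.27) and the protease TMPRSS15 (0.32). The calls of FAIM, PAQR5, RAB34 and TMPRSS15 held in 9, 11, 8 and 10 of the 17 alternatives.

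The genes past TREAT against No gRNA with both guides were split about evenly between the guides. With TREAT, 37 genes other than ZEB1 were higher and 6 lower than No gRNA with both guides, where the test called 0.396% of all genes with All gRNA and 0.39% with gRNA 4. Of the 37 risers, 19 were higher with All gRNA and 18 higher with gRNA 4, with a median difference between the guides of 0.01 on the log2 scale, beside 0.00 over all genes tested. The median rise over No gRNA was 2.36 with All gRNA and 2.62 with gRNA 4. The moderated test called 2 of the 37 as higher with All gRNA (LAMB3 and UGT1A6) and 8 as higher with gRNA 4 (AQP3, BCL2A1, PI3, S100A9, CCL20, CDH3, SLPI and the ankyrin repeat gene ANKRD22), and 0 of the 6 that fell (3 of them at an unadjusted p under 0.05; edgeR called 0 and DESeq2 1). Since these genes were chosen by their difference from No gRNA in both conditions, the counts are a description.

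For several epithelial genes the interval of the difference was narrow around 0. The desmosome linker DSP was at 169, 175 and 178 CPM with gRNA 4 and 200.1, 171 and 174 with All gRNA, against 60.7, 62.6 and 59.8 with No gRNA, a difference between the guides of 0.06 (95% interval −0.07 to 0.19). COL17A1, the hemidesmosome collagen, was at 1401, 1425 and 1448 CPM and 1472, 1465 and 1518 CPM and differed by 0.06 (95% interval −0.02 to 0.14). The tight junction protein F11R differed by −0.04 (95% interval −0.27 to 0.20), the serine protease inhibitor SPINT1 by 0.00 (95% interval −0.32 to 0.32) and the microtubule-associated protein MAP7 by 0.02 (95% interval −0.27 to 0.30). The adhesion molecule EPCAM had no counts in the No gRNA libraries and was at 0.991, 0.920 and 1.33 CPM with gRNA 4 and 0.891, 0.784 and 0.848 CPM with All gRNA, with a wider interval of −0.95 to 0.28 around its difference. For IL1B, an inflammatory cytokine that rose by 2.30 and 2.36 over No gRNA, the difference was 0.06 (95% interval −0.13 to 0.24). IL1B was also higher in wild type than in No gRNA, by 2.09. The wild type libraries, at 45.0, 51.3 and 44.8 CPM, overlapped the gRNA 4 libraries, at 60.0, 50.1 and 52.9 CPM. A difference of log2 1 lay outside the intervals of DSP, COL17A1, F11R, SPINT1, MAP7, EPCAM and IL1B. The plot of the 43 genes with their intervals shows the 8 genes called higher with gRNA 4 at its lower end.

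**Figure D4:**
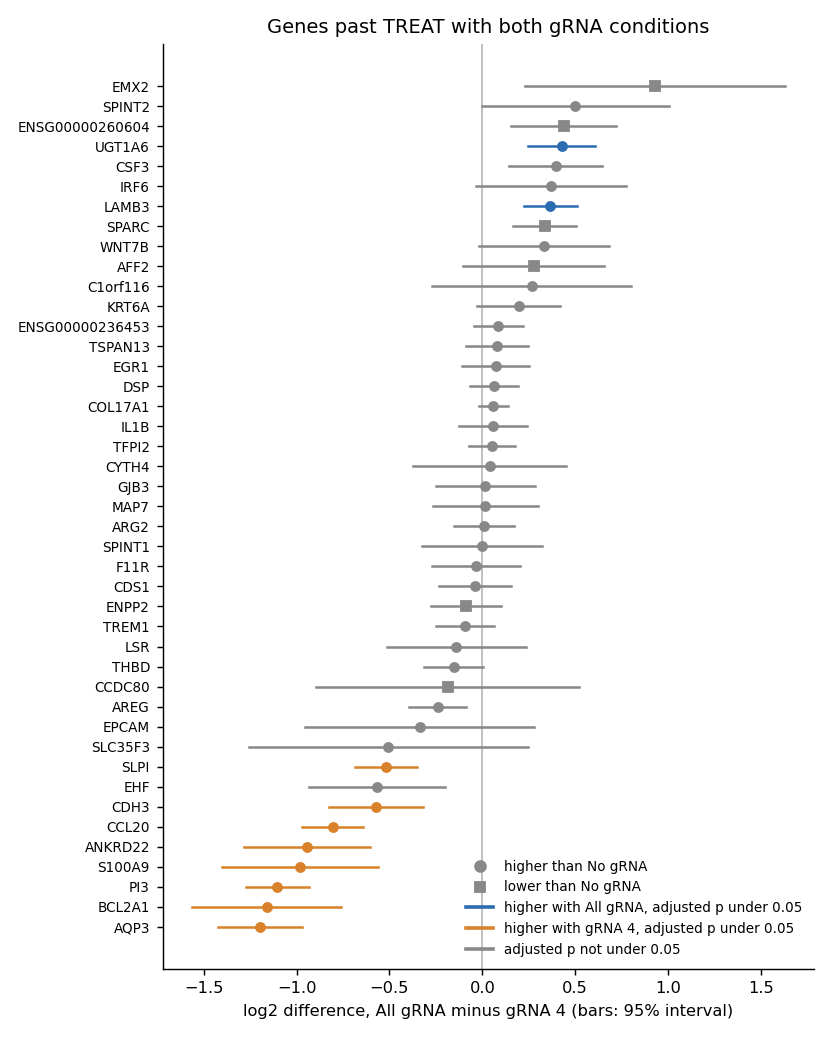
Log2 difference between All gRNA and gRNA 4 (horizontal, with 95% intervals from the voom-limma fit) for the 43 genes other than ZEB1 that passed TREAT against No gRNA with both guides. Circles are genes higher than No gRNA and squares genes lower; colours mark the 10 genes called between the guides, 2 higher with All gRNA and 8 higher with gRNA 4.

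Of all genes tested, 10.8% differed from No gRNA with All gRNA (5.93% higher, 4.89% lower) and 11% with gRNA 4 (6.11% higher, 4.91% lower). Of 16 tested epithelial junction genes 9 were higher than No gRNA with each condition, and between the guides 1 was called (CDH3, lower with All gRNA; 6.25%, beside 0.944% of all genes), with a median difference of −0.01. Of 18 epithelial identity, splicing and trafficking genes 10 were higher than No gRNA with each condition and 0 were called between the guides by limma, edgeR or DESeq2, with 2 at an unadjusted limma p under 0.05. Of 33 mesenchymal matrix and cytoskeleton genes 18 were lower than No gRNA with each condition, and 2 were called between the guides (6.06%), both higher with All gRNA, among them S100A4. Of 10 other EMT transcription factors limma called 0 (3 at an unadjusted p under 0.05), and edgeR and DESeq2 called 1 each. The 10 differences ranged from −0.49 to 1.29, with ZEB2, the closest paralog of ZEB1, at 0.16 (95% interval −0.44 to 0.76) and SNAI2 at 0.07 (95% interval −0.06 to 0.20). LAMB3, whose call was lost in 7 of the 17 alternatives, was the 1 call among 9 laminin-332 and hemidesmosome genes and KRT7 the 1 among 11 keratins.

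In the cytokine and NF-kB list 4 of 23 genes were called (17.4%, beside 0.944% of all genes), CCL5 as higher and CCL20, SAA1 and SAA2 as lower with All gRNA. SAA1 and SAA2 can share reads, and 17 of the 23 estimates were higher with All gRNA, with a median of 0.07. In the S100 family 3 of 11 genes were called (27.3%), S100A16 and S100A4 as higher and S100A9 as lower, and 8 of the 11 estimates were higher with All gRNA. CXCL8, a neutrophil chemokine, was at 475, 399 and 412 CPM with gRNA 4 and 495, 549 and 582 with All gRNA, and CSF3, the granulocyte growth factor, at 136, 176 and 154 and 235, 189 and 189, and neither difference passed the test (adjusted p = 0.0843 and 0.190). Of the 3 metallothioneins tested MT1X was called, MT2A differed by 0.22 (95% interval 0.01 to 0.43) and MT1E by 0.33 (95% interval −0.06 to 0.72). The call in the unfolded protein and ATF4 list (1 of 21) was PHGDH, that in the NRF2 list (1 of 17) FTL and that in the glycolysis and hypoxia list (1 of 24) EGLN3. Limma called 0 genes among 26 interferon-stimulated genes, 25 G1/S, 25 G2/M, 21 corepressor, 23 cholesterol and fatty acid and 16 YAP/TEAD genes, with 33 of these 136 at an unadjusted p under 0.05, beside 11.5% of all genes, and edgeR called 0 and DESeq2 2 of them. For 19 of the 25 G2/M genes the estimate was lower with All gRNA, with a median of −0.06 and a range of −0.35 to 0.16.

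Around the targeted promoter, limma called 1 of the 18 tested genes other than ZEB1 within 2 Mb of the ZEB1 start site, ZEB1-AS1 (5.56%), with edgeR calling 1 and DESeq2 2. Of the 18 estimates 13 were lower with All gRNA, with a median of −0.09 and a range of −5.03 to 4.72. The upper end was the processed pseudogene CKS1BP2, named after its values were seen, at no more than 0.176 CPM with gRNA 4 and 0.918, 2.86 and 1.06 CPM with All gRNA, and its difference did not pass the test (95% interval −0.23 to 9.67, adjusted p = 0.459). The 3 tested genes that the study had named as predicted off-target sites were not called by limma, edgeR or DESeq2 (1 at an unadjusted limma p under 0.05), with differences of −0.21 (95% interval −0.49 to 0.07) for EIPR1, which acts in vesicle trafficking, −0.04 (95% interval −0.11 to 0.04) for the G protein subunit GNAS and 0.34 (95% interval 0.09 to 0.58) for the prenyltransferase subunit RABGGTA.

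A further comparison of separately kept SUM159 populations came from the groups without a ZEB1 guide. Wild type lacked the vector and the selection of No gRNA, so their effect and a difference between populations cannot be told apart here. Wild type and No gRNA differed by the moderated test for 42.9% of all genes tested and for 101 of the 143 genes (70.6%), and these libraries have none in common with the comparison of the guides. By class the share was 16 of 20 stepwise, 18 of 33 All gRNA alone, 27 of 32 reverse step and 31 of 45 gRNA 4 alone genes. The classes were themselves set by differences from the same No gRNA libraries. For 70 of the 143 genes the difference between wild type and No gRNA was called and larger in size than that between the guides. CCL5 differed by −6.23 between wild type and No gRNA, PLAU by 1.99, TNFRSF10D by −1.96 and CD36 by −2.40. Among the reverse step genes that rose, PI3 differed by −3.23, SLPI by −3.06, S100A9 by −2.95, AQP3 by −2.47 and CDH3 by −2.11. CCL20 differed by 2.64, and BCL2A1 (−0.50) was not called. ZEB1 (0.12), ZEB1-AS1 (−0.16) and DUSP5 (0.11) differed little between these groups. Because the conditions were separate transductions and replicates of clones, an effect of the number of guides and a difference between the populations cannot be told apart for any single gene.

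**Figure D5:**
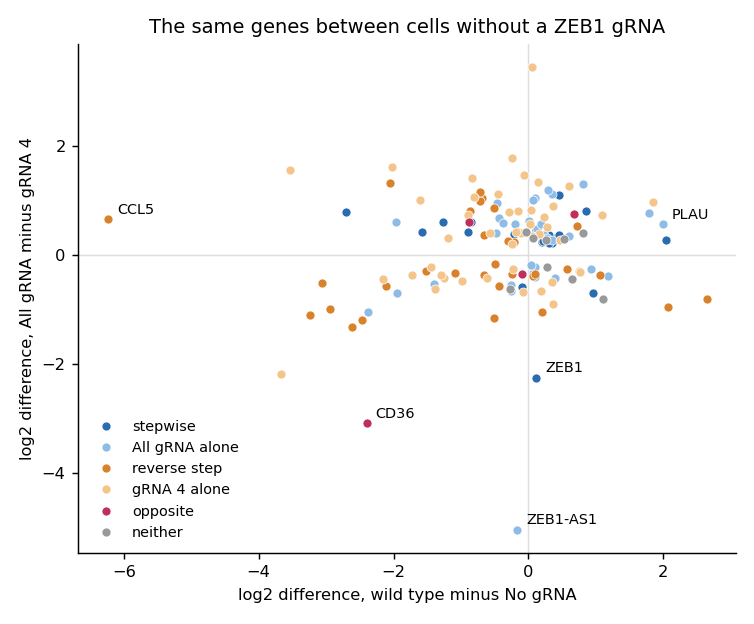
Log2 difference between wild type and No gRNA (horizontal) and between All gRNA and gRNA 4 (vertical) for the 143 called genes, coloured by class. CCL5 lies at −6.23 and PLAU at 1.99 on the horizontal axis, and ZEB1 and ZEB1-AS1 lie near 0 on it.

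MDA-MB-231 gave values from libraries that the classes did not use. Its targeted libraries formed a pair of sets whose titles and column names disagree on which received gRNA 4 (set 1 by the titles, set 2 by the columns) and which the pool, so each set was compared only with its own No gRNA libraries, which both share. ZEB1 was lower by 4.36 in set 1 and by 4.54 in set 2 on the log2 scale, and ZEB1-AS1 by 4.71 and 2.64. Of 17 stepwise genes tested there, 16 were called in set 1 (37.8% of all genes were, 20.4% as higher) and 12 of them in the direction of the SUM159 step, and 15 in set 2 (52.4%, 27.3% as higher) and 2 of them in that direction. LAMB3 was at 1.36 in set 1 and −0.06 in set 2, S100A16 at 0.62 and −0.24, ITGA2 at 0.55 and −0.27, MT1X at 0.25 and −0.64 and STC1 at −0.36 and −2.11. The 2 in set 2 were ZEB1 and ENSG00000230439, the latter at 2.39 in set 1 and 1.19 in set 2. Of 26 reverse step genes tested, 17 were called in set 1 and 20 in set 2. Of these, 9 in set 1 and 13 in set 2 went in the direction of the SUM159 difference of gRNA 4 from No gRNA.

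The spread between the replicates of a condition was small for most genes and large for a few. Of 10706 genes with a mean of at least 5 CPM with All gRNA and 10685 with gRNA 4, 0.953% with All gRNA and 0.898% with gRNA 4 had 1 library more than log2 1 away from the nearer of the others, against 0.759% in wild type and 0.823% with No gRNA. The median SD of log2 CPM was 0.115 with All gRNA, 0.120 with gRNA 4, 0.106 with No gRNA and 0.0932 in wild type. The widest gaps with All gRNA were those of SCN1A, a neuronal sodium channel (18.9 CPM in replicate 2 and at most 0.0331 in the others), the synaptic protein PRRT2 (21.2 CPM in replicate 1 and at most 0.605) and the calcium release channel RYR3 (27.5 CPM in replicate 3 and at most 0.921). With gRNA 4 they were those of the non-coding RNA TMLHE-AS1, of RYR3 (20.2 CPM in replicate 1 and at most 1.07) and of MYLK, the myosin light chain kinase (18.1 CPM in replicate 3 and at most 1.01). RYR3 had such a gap in wild type too, with 57.4 CPM in replicate 1 and at most 0.870 in the others.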

How the data were processed

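RNA from SUM159 and MDA-MB-231 cells was sequenced by the study as 50 bp single-end reads and quantified with Salmon against GRCh38; the Salmon version, the transcript annotation and any strand setting are not given in the sources used here. The table deposited by the authors holds estimated counts for each gene, made with tximport as length-scaled TPM and not normalized between libraries, and CPM was computed here from them after TMM scaling. Of 57165 gene identifiers 56347 matched GENCODE v44, which gave symbols. Genes were kept by filterByExpr (minimum count 10; 15147 genes), and the 12 SUM159 libraries of run 1 were fitted by group with voom in limma 3.58.1 (R 4.3.3, edgeR 4.0.16 for TMM). The moderated test against 0 and TREAT against a log2 difference of 1 were both adjusted over all genes by Benjamini-Hochberg, with 0.05 as the threshold. Adjusted p-values in the report are of this fit unless another tool is named.

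Counts were rounded for the alternatives in edgeR and DESeq2 1.42.0. The MDA-MB-231 libraries of run 2 had a fit of their own (15721 genes). The single-gene permutation tests were exact and two-sided on log2 CPM with a prior count of 2. Counting intervals cover counting error only. Replicates were taken as the labels number them, so p-values measure the spread between these samples. Scripts were tested on simulated data. The genes, lists and classes were chosen with earlier results of these data known. Named genes were ZEB1 and ZEB1-AS1, the 8 highest and 8 lowest called differences with no overlap between the libraries and a mean of at least 20 counts in the higher group, the 4 smallest adjusted p-values per class, all called members of the lists, and the 3 widest gaps between replicates per group; other names were chosen after their values were seen, and a gene that the rule names is not reported here.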

Additional observations from a re-analysis of the deposited data

How the results depend on the processing

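No difference of a gene that the naming rule chose changed sign in any alternative fit, but with wild type as the reference PHLDA1 went from stepwise to reverse step. The 143 moderated calls became 355 with DESeq2, 68 with the replicate number as a block, 65 in a fit of 9 libraries without wild type, 28 in a fit of the 6 libraries alone and 30 with an added minimum log2 difference of 1, and 59 to 85 when 1 library was left out. Stepwise genes numbered 40 with DESeq2, 9 with the block, 11 in the fit of 9 libraries, 31 with wild type as the reference and 9 to 13 without 1 library, against 20, and the fit of 6 libraries cannot give this class. TREAT calls, 0 in the report, were 2 with edgeR, 3 with DESeq2, 1 without a filter on low counts, 2 with the 6 libraries, 19 against a minimum fold of 1.2 and 0 to 1 without 1 library. ZEB1 ranged from −2.54 to −1.84 without 1 library and was called in 4 of 6 such fits, and with the 6 libraries alone it was −2.25 (adjusted p = 0.115). ZEB1-AS1 ranged from −5.74 to −3.68 and was called in all 6, and with the 6 libraries alone it was −5.03 (adjusted p = 0.107). Fits with fewer libraries estimate the spread from fewer values; the cause of the other shifts was not tested.

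The replicate numbers did not pair the samples: deviations of equally numbered All gRNA and gRNA 4 libraries correlated at −0.08 to −0.02, and with the replicate block all 68 calls were among the 143. edgeR also called 143 genes, 127 of them shared, and DESeq2 shared 141 of the 143 and its share of higher calls was 50.1%, against 59.4%. Over the other 43 named genes, 575 of 729 values kept their side of the threshold and 152 did not, most often for CDH3, IL36RN, MMRN2, S100A9, S100A16 and S100A4. Few counts limit ZEB1, ZEB1-AS1 and MMRN2.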
